A study of Homo sapiens with 3 samples.

Results

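The data compared here are the log2 signals of 2 oligonucleotide arrays hybridised with RNA of KYSE180 cells, a line established from a human oesophageal squamous cell carcinoma. One array came from cells given the LZRS_HOTAIR vector with the Polyfect reagent, which carries the long non-coding RNA HOTAIR for overexpression. The other came from cells given a mixture of Stealth siRNAs directed at HOTAIR, 100 pmol, with Lipofectamine2000. RNA of both was taken 48 h after transfection. The series holds 3 arrays, 1 for each group, and its control array was not compared, entering only the choice of a probe set for each gene and the filter on dim genes. Each gene was represented by the probe set with the highest mean signal over the 3 arrays, among probe sets carrying 1 gene symbol. This gave 18132 genes, of which 10917 passed a filter set at the median of the probe set means (log2 5.28) and were described, while 7215 lay below it. All differences below are vector minus siRNA on the log2 scale, so a positive value is a higher signal in vector cells.

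With 1 array per group there was no replicate check, and no difference below has a test. Precision is limited by the number of arrays. Reagent, kind of nucleic acid (plasmid or siRNA) and the intended direction of HOTAIR all changed together between the arms and cannot be told apart. The source name of the siRNA sample refers to a HOTAIR cell line, whereas its title and cell line field name KYSE180. HOTAIR itself had 0 annotated probe sets, and its level was not analysed here. A lower signal in bulk RNA can come from fewer cells of a type or from less RNA per cell, which cannot be told apart.

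HOTAIR is transcribed from the HOXC cluster and is known for binding the repressive chromatin complex PRC2. Interferon-stimulated genes, which will recur below, are switched on when cells sense viral nucleic acid or when interferon binds its receptor. The factor ISGF3, built of phosphorylated STAT proteins and IRF9, then binds the interferon-stimulated response element in their promoters. Squamous epithelium has a separate programme in which cells leaving the basal layer make precursors of the cornified envelope, S100 proteins and protease inhibitors. Matrix metalloproteinases, collagens and matrix glycoproteins build and remodel the tissue around such cells.

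The promoter sequences below are shown because these 6 interferon-stimulated genes, chosen among those with large differences after all promoters were searched, share a motif there. The motif searched was the core of the interferon-stimulated response element, GAAANNGAAA, on both strands, where N is any base. Windows are the 200 bases before the annotated start of the gene, read 5′ to 3′ on its strand from RefSeq (GRCh38.p14), and capitals mark each match, the reverse complement included. The IFI27 window is chr14:94110536-94110735 on the plus strand, and that of IFI6 is chr1:27672193-27672392 on the minus strand. IFIT3 is at chr10:89327797-89327996 and IFIT1 at chr10:89392423-89392622, both on the plus strand. ISG15 is at chr1:1013297-1013496, where its 2 matches overlap, and IFI44 at chr1:78649589-78649788, both on the plus strand.
IFI27: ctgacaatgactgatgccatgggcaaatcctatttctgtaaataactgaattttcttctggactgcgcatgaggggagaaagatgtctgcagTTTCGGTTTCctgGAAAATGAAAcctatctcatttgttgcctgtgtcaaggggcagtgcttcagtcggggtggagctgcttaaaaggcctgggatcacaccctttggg
IFI6: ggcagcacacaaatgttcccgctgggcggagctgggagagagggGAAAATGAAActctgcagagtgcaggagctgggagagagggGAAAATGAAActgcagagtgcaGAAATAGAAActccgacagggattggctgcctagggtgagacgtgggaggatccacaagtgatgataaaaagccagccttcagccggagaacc
IFIT3: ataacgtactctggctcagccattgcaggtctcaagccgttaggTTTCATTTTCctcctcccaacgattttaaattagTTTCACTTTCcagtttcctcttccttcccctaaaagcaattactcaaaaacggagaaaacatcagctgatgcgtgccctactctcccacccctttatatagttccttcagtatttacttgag
IFIT1: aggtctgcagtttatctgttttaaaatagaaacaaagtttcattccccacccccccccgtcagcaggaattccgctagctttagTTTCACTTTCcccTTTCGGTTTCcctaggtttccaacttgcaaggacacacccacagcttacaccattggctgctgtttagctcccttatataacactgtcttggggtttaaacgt
ISG15: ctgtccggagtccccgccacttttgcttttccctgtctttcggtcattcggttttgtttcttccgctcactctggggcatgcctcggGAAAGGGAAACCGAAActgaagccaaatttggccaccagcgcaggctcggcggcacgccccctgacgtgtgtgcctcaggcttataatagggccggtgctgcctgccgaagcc
IFI44: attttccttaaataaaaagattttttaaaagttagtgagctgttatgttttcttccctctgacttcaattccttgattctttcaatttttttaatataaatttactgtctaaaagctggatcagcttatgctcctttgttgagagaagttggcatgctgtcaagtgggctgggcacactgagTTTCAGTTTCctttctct

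Counted from the start of the gene, the matches began at -108 and -95 in IFI27, at -156, -115 and -93 in IFI6, at -156 and -122 in IFIT3 and at -116 and -103 in IFIT1. In ISG15 they began at -113 and -107, and in IFI44 at -18. A match is a description of the letters and does not show that a factor bound there in these cells.

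Most genes differed little between the arms. The median difference of the 10917 genes was 0.014, the quartiles were -0.16 and 0.19, and 96.4% of genes lay within 1 of 0. The Pearson r of the 2 arrays was 0.972 across genes, a description only, since genes are no replicates. At least 2-fold higher in vector cells were 189 genes (1.73% of those above the filter), and 202 were at least 2-fold lower (1.85%). Because the filter used a mean over arrays, a gene could pass it with a dim arm. The dimmer arm was below the filter level in 24 of the 189 higher genes and in 47 of the 202 lower genes. Past 4-fold there were 42 higher and 38 lower genes, and past 16-fold 6 higher and 3 lower. The 6 higher genes were IFI27, UCA1, S100A9, IFIT3, IFI6 and DDX60, and the 3 lower genes were MMP10, MMP1 and TNC.

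The only spread the files offer is that between probe sets of 1 gene, which had a root mean square SD of 0.255 (log2). Of the 189 higher genes, 130 had several probe sets. In 106 of these every probe set was above 0, and in 47 every probe set was past 2-fold. Of the 202 lower genes, 164 had several probe sets, all below 0 in 128 and all past 2-fold in 31. Of all 8320 genes above the filter with several probe sets, 50.5% had all of them on the same side of 0. Probe sets were also combined by the mean or the median of their levels on each array. A further way left out probe sets marked as open to cross-hybridisation. Genes that stayed at least 2-fold apart under every way that gave them a value numbered 125 higher (1.15%) and 104 lower (0.953%). Genes with no other probe set than those left out were judged on the remaining ways alone. Of the named genes past 2-fold 15 had no value there, IFI27, IFIT3 and ISG15 included. Differences were more frequent among dim genes, with 32 higher and 29 lower genes in the dimmest 1092 genes and 4 and 1 in the brightest 1092.

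**Figure D1:**
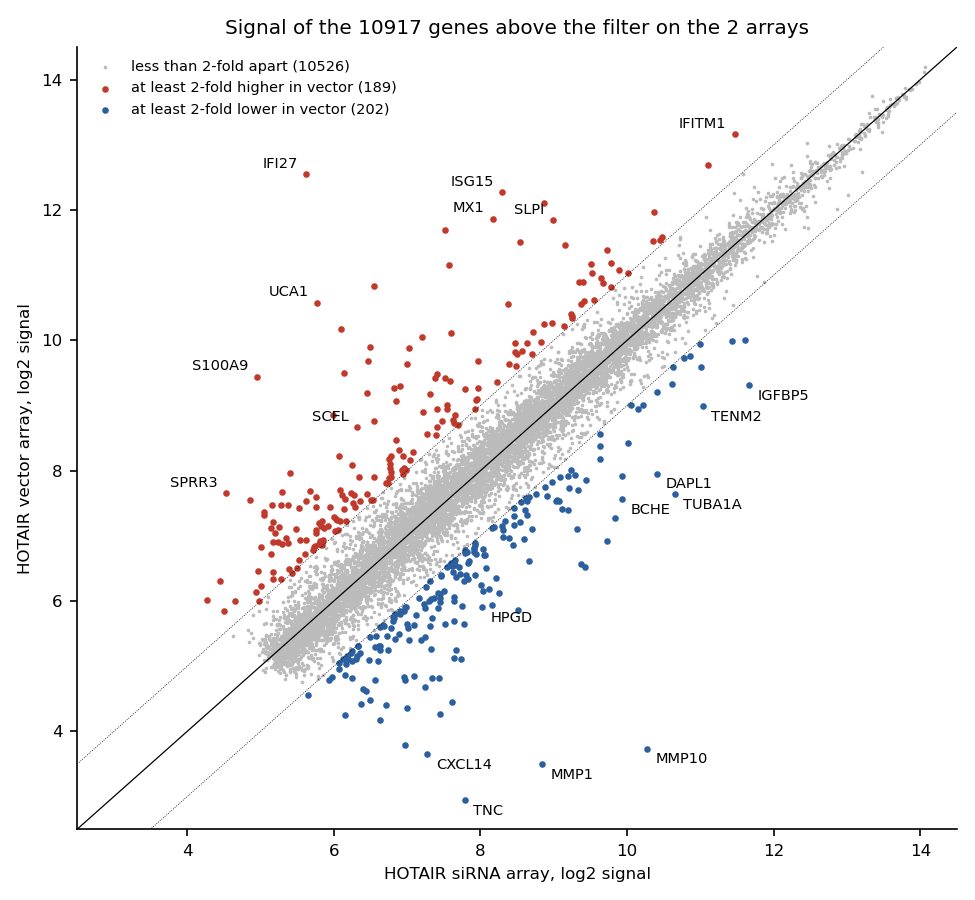
Log2 signal of each of the 10917 genes above the filter on the HOTAIR siRNA array (x axis) and the HOTAIR vector array (y axis), 1 point per gene, with the line of equality and dotted lines at 2-fold. The 189 red genes lie at least 2-fold above the line and the 202 blue genes at least 2-fold below it, with IFI27 and MMP10 furthest out on each side.

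Both arrays carried the marks of squamous epithelium. Of 15 identity markers 10 were measured and all were above the filter, with a median log2 signal of 11.38 in vector and 11.39 in siRNA cells, and 0 of them were 2-fold apart. The stem cell and squamous lineage factor gene SOX2 stood at 11.69 and 11.68, and E-cadherin (CDH1) at 11.70 and 11.87. The basal keratin genes KRT5 (11.72 in vector, 12.47 in siRNA) and KRT14 (12.22 and 13.01) were on the lower side in vector cells, by -0.75 and -0.79. All 10 fibroblast markers, the collagen genes COL1A1, COL1A2 and COL3A1 included, were measured and 0 passed the filter. Their signals ran from 2.42 to 4.86 in vector and from 2.62 to 4.90 in siRNA cells, with linear sums of 132 and 137. Above the filter were 2 of 10 measured endothelial, 2 of 11 T and NK cell and 3 of 8 B cell markers. Of measured myeloid markers 3 of 11 were above it, and of glandular markers 1 of 7. Among these markers above the filter 0 were 2-fold apart.

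Interferon-stimulated genes were the group most often higher in vector cells. Of 108 interferon list genes above the filter, 44 passed 2-fold on the higher side and 0 on the lower side, and 86 were above 0. The median was 0.78 against 0.014 for all genes, and the share past 2-fold compares with 1.73% of all genes. Of the 44, 33 were higher under every way of combining probe sets and scaling that gave them a value. The lists were drawn up with earlier results of these arrays known, so their direction is no independent evidence.

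Nucleic acid sensors detect foreign RNA or DNA in the cell. RIGI, the cytosolic RNA helicase sensor, had 7.20 in siRNA and 10.05 in vector cells, a difference of 2.85, with its 3 probe sets between 2.58 and 3.22. IFIH1, which encodes MDA5, a sensor of long double-stranded RNA, went from 7.38 to 9.42 (2.05), and DHX58, the third helicase of this family, from 6.85 to 9.07 (2.22). The helicase-like genes DDX60 (6.10 and 10.18) and DDX60L (5.28 and 7.48) lie side by side in the genome and were both higher, by 4.08 and 2.19. IFI16, a DNA sensor, differed by 1.55 with all 3 probe sets between 1.51 and 1.61, and EIF2AK2, the double-stranded RNA-activated kinase PKR, by 1.48. Of 14 sensor and adaptor genes above the filter, 7 were 2-fold higher and 0 lower, with a median of 1.11, or 0.36 over all 20 measured, of which the same number passed.

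Next come the genes that carry the interferon signal itself. Of 6 interferon ligand and receptor genes above the filter, 0 were 2-fold apart in either direction, and the receptor subunit genes IFNAR1 (8.45 in vector, 8.19 in siRNA) and IFNAR2 (6.45 and 6.75) were within 0.3 of each other. IRF9, the DNA-binding subunit of ISGF3, stood at 10.56 in vector and 8.38 in siRNA cells, a difference of 2.18. Its 4 probe sets lay between 2.03 and 2.26, a narrow range. IRF1, an interferon-induced activator, differed by 1.28 but by 0.74 with the mean over its 4 probe sets. Among 9 genes of JAK, STAT and IRF signalling above the filter, IRF9 and IRF1 were the 2 that passed 2-fold.

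Antiviral effectors had some of the largest differences. All 7 IFIT and OAS genes that passed the filter were past 2-fold on the higher side. Their median was 2.88, or 2.74 over all 9 measured. The IFIT proteins bind viral RNA that lacks host cap marks. IFIT3 went from 6.55 in siRNA to 10.83 in vector cells (4.28), IFIT1 from 8.87 to 12.11 (3.24), IFIT2 from 6.91 to 9.30 (2.40) and IFIT5 from 7.22 to 8.89 (1.67). The OAS enzymes make the 2′-5′ oligoadenylates that activate RNase L. OAS1 differed by 3.41 (6.49 and 9.90), with 4 probe sets between 2.58 and 3.67. OAS2 differed by 2.88 (5.98 and 8.86), and its 5 probe sets spanned 2.88 to 6.32. OASL, a family member without that enzymatic activity, differed by 2.74.

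Restriction factors, which block steps of viral replication, were split between large and small differences. Of 24 above the filter, 11 were 2-fold higher and 0 lower, with a median of 0.98. The dynamin-like GTPase gene MX1 went from 8.17 to 11.87 (3.70). SAMD9, an antiviral gene, differed by 2.51, and the membrane proteins IFITM1 (11.47 and 13.16) and IFITM3 (9.73 and 11.39) by 1.69 and 1.66. PLSCR1, a phospholipid scramblase, differed by 1.58, with all 6 probe sets between 1.41 and 2.14. The nuclear body gene SP100 differed by 1.42, with 6 of 9 probe sets past 2-fold. For CMPK2, a nucleotide kinase gene, the difference of 3.36 rested on 1 of 3 probe sets, the others being at 0.90 and 0.01. SP110 differed by 1.87 with 3 of 5 probe sets past 2-fold. With the mean over probe sets SAMD9L (1.73) came to 0.67, SAMHD1 (1.36) to 0.95 and TRIM14 (1.15) to 0.65.

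The ubiquitin-like modifier ISG15 is attached to proteins by the ligases of the HERC family. ISG15 had 8.30 in siRNA and 12.27 in vector cells (3.97), and HERC6 6.46 and 9.68 (3.22). HERC5, the main human ligase, had 9.63 in vector cells (2.63). The conjugating enzyme gene UBE2L6 was at 10.21 and 11.13, short of 2-fold. IFI27, a mitochondrial protein of little known function, had the largest difference of any gene above the filter, from 5.62 to 12.55 (6.93, a 122-fold ratio), with 2 probe sets at 6.03 and 6.93. IFI6 went from 7.51 to 11.70 (4.19). IFI44 went from 7.58 to 11.16 (3.58), and its 6 probe sets were all past 2-fold, from 1.09 to 4.02. In the list of IFI genes of little known function 5 of 11 above the filter were 2-fold higher and 0 lower. In that list 1 was below 0 and the median was 0.91.

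Other arms of the response had smaller differences. The ADP-ribosyltransferase gene PARP9 differed by 2.32 and its partner ligase DTX3L by 1.66, and each had 3 of 3 probe sets past 2-fold. In their list of interferon-linked PARPs 3 of 8 genes above the filter were 2-fold higher and 0 lower. In that list 3 were below 0 and the median was 0.38. The guanylate-binding protein gene GBP2 differed by 1.62, the only 1 of 5 above the filter past 2-fold. Of 19 antigen presentation genes, 5 were 2-fold higher and 0 lower, with a median of 0.40. The peptide transporter gene TAP1 differed by 1.13 with both probe sets past 2-fold. The others lost 2-fold with the mean over probe sets, namely the class I transactivator NLRC5 (1.34, or 0.69), HLA-B (1.21, or 0.89), the immunoproteasome subunit PSMB8 (1.19, or 0.67) and HLA-C (1.09, or 0.79). HLA class I genes are close copies of each other, so probes may be shared between them. SLFN5, an interferon-inducible gene outside the lists, differed by 1.99 with 4 of 4 probe sets past 2-fold.

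Some interferon-stimulated genes lay outside the filter because their mean over the 3 arrays was low. RSAD2, which encodes the antiviral enzyme viperin, had 3.24 in siRNA cells, below that array's lower quartile of 3.62, and 8.54 in vector cells. GBP5 had 3.28 and 6.75. IFI44L, singled out after its values were seen, had 3.68 and 7.76, with 3 probe sets between 2.93 and 4.39. RMA compresses differences near the background, so the sizes of these differences are uncertain.

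**Figure D2:**
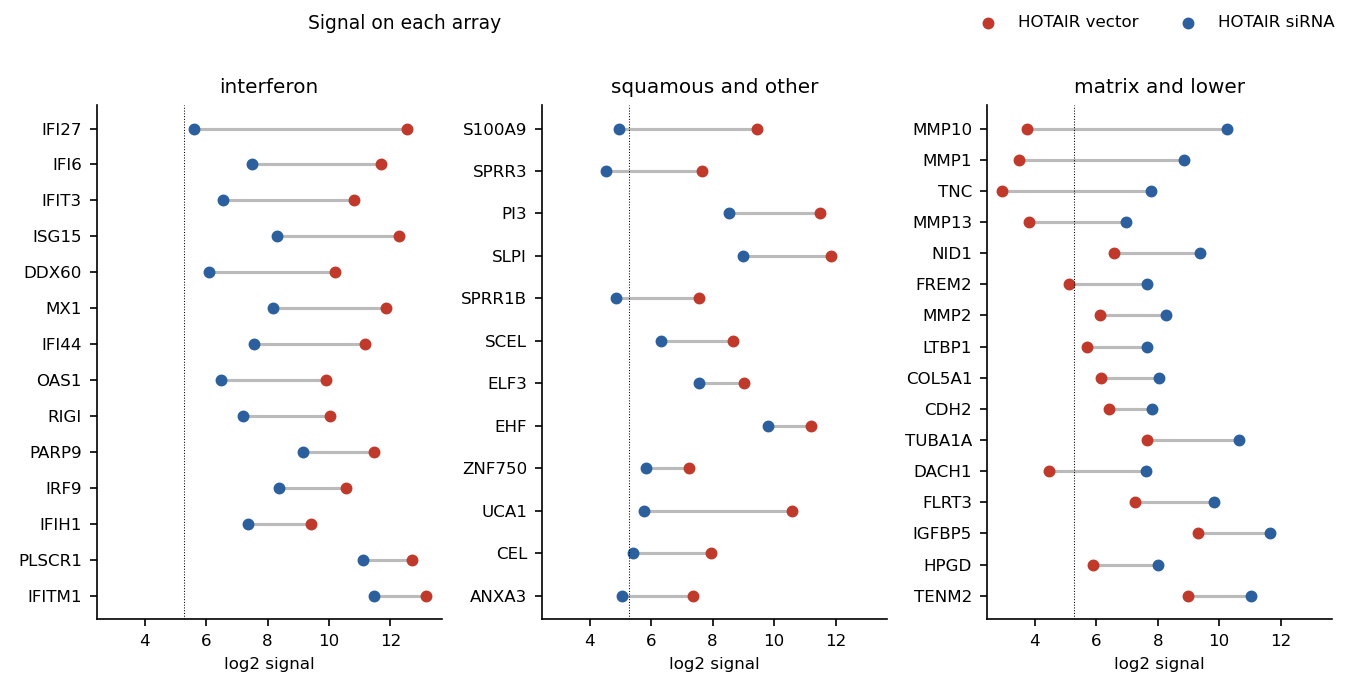
Log2 signal on the HOTAIR vector array (red) and the HOTAIR siRNA array (blue) for genes in 3 panels, 1 line per gene, with a dotted line at the filter level of 5.28. Interferon and squamous genes have the red point to the right, and the lower genes have it to the left, with MMP10, MMP1 and TNC below the filter level in vector cells.

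Promoters were compared with this pattern. RefSeq promoters of 300 bases, from 250 before to 50 after the start, were matched to 9065 genes above the filter, and 2.59% of these held the core GAAANNGAAA on either strand. Among the higher genes 25 of 151 held it (16.6%), and among the lower genes 1 of 147 (0.680%), the teneurin gene TENM2. Of the higher genes in an interferon list 21 of 37 held it (56.8%), and of the higher genes in no such list 4 of 114 (3.51%), namely H2BC11, LAP3, SGO2 and SPARCL1. Interferon list members less than 2-fold apart held it in 17 of 47 promoters (36.2%). These lists were chosen from genes known to answer interferon, so a high share was built in.

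The AP-1 site TGANTCA, which is its own reverse complement, is bound by FOS and JUN dimers and is known from promoters of metalloproteinase and cornified envelope genes. It stood in 4.46% of all promoters, in 8.61% of those of higher genes and in 6.12% of those of lower genes. It occurred on both sides of the comparison, as the windows of SPRR1B (higher, chr1:153031003-153031202, plus strand) and MMP10 (lower, chr11:102780629-102780828, minus strand) show, with the matches in capitals at -141 and -111 in SPRR1B and at -67 in MMP10.
SPRR1B: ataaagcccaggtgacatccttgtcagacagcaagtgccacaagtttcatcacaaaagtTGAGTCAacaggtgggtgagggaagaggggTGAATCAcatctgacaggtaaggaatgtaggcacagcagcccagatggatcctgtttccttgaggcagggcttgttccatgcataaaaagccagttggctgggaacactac
MMP10: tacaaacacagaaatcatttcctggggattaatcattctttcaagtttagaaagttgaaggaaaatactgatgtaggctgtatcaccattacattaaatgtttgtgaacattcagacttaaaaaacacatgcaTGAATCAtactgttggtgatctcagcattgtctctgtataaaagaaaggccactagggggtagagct

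**Figure D3:**
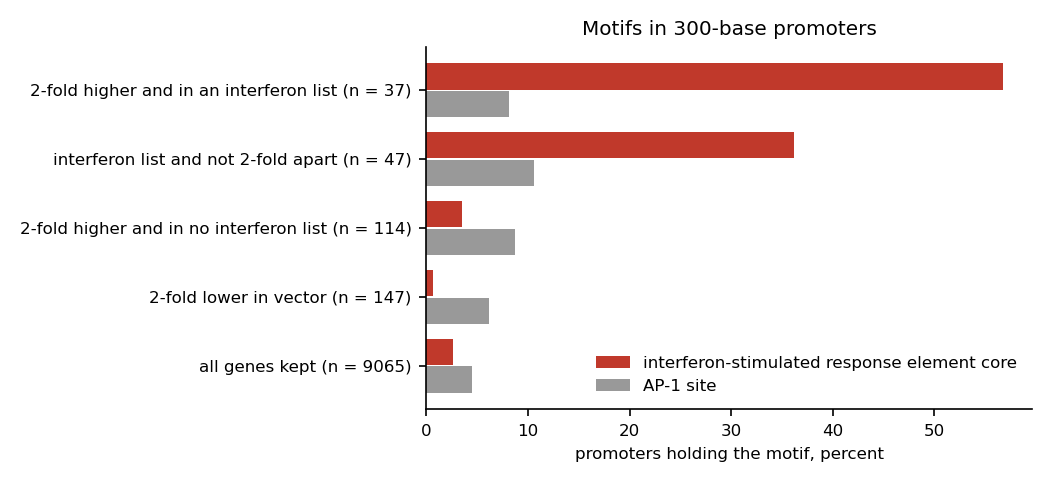
Share of 300-base promoters holding the interferon-stimulated response element core (red) or the AP-1 site (grey), in percent, for 5 groups of genes with n promoters each. The red bar reaches 56.8% for higher genes in an interferon list against 2.59% for all genes above the filter, while the grey bars lie between 4.46% and 10.6%.

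Some genes of squamous differentiation were also higher in vector cells. The epithelial lists held 132 genes above the filter. Of these 22 passed 2-fold on the higher side (against 1.73% of all genes) and 4 on the lower (against 1.85%), 80 were above 0 and the median was 0.13. The squamous identity markers described above had 6 of 10 below 0 and a median of -0.18. Among 20 cornified envelope genes 5 were 2-fold higher and 0 lower. SPRR3 and SPRR1B encode small proline-rich proteins that are cross-linked into the envelope. SPRR3 had 4.53 in siRNA and 7.65 in vector cells (3.12), and SPRR1B 4.85 and 7.55 (2.69), so both were below the filter level in siRNA cells. SCEL, the gene of the envelope precursor sciellin, went from 6.31 to 8.67 (2.36), and its 6 probe sets were all past 2-fold, between 2.11 and 3.17. The neighbouring genes PI3 (8.54 and 11.50) and SLPI (8.98 and 11.85) encode inhibitors of neutrophil elastase and differed by 2.96 and 2.86.

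The S100 proteins S100A8 and S100A9 form calprotectin, which sequesters metal ions at inflamed epithelia. S100A9 had 4.94 in siRNA and 9.44 in vector cells (4.50), while S100A8 had 6.26 and 7.50 (1.23). S100P, a related calcium-binding protein, went from 5.17 to 7.21 (2.04). These were the 3 of 13 S100 genes above the filter that passed 2-fold, and 0 were lower. S100A7, below the filter and singled out after its values were seen, had 4.25 and 6.54.

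Transcription factors of epithelial differentiation shared this direction. Of 23 such genes above the filter, 6 were 2-fold higher and 1 lower, with a median of 0.27 (0.48 with the filter at the 75th percentile). The ETS factor genes ELF3 (7.55 in siRNA) and EHF (9.79 in siRNA, 11.19 in vector) differed by 1.46 and 1.40, with 3 of 3 and 7 of 8 probe sets past 2-fold. ZNF750, a driver of terminal epidermal differentiation, went from 5.84 to 7.22 (1.38), with 4 probe sets between 1.33 and 1.39. GRHL3, a grainyhead factor of barrier formation, differed by 1.29, and KLF4, another barrier factor, by 1.14. GRHL1 differed by 1.32 (0.73 with the mean over probe sets). BNC1, a basal keratinocyte zinc-finger gene, was the lower one at -1.96, or -0.89 with the mean.

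Epithelial proteases and junction genes gave mixed values. Of 15 kallikreins and related genes 4 were 2-fold higher, namely the surface protease gene TMPRSS11E (1.63), KLK11 (1.21), KLK10 (1.13, or 0.99 with the mean over probe sets) and LYPD3 (1.13), a surface protein of suprabasal cells. The adhesion gene NECTIN4 (1.54, or 0.85) was the only 1 of 19 tight and adherens junction genes past 2-fold. Desmosome and hemidesmosome genes had 0 of 12 past 2-fold. Gap junction genes ran the other way, with 2 of 8 lower (against 1.85% of all genes), 7 below 0 and a median of -0.70. The lower members were the neighbouring connexin genes GJA3 (7.92 in siRNA, 6.39 in vector, -1.53) and GJB2 (9.23 in siRNA, -1.23, or -0.87 with the mean). KRT1, the suprabasal keratin of epidermis, was also lower at -1.70, against the direction of the envelope genes, and 11 other keratins were less than 2-fold apart.

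Markers of glandular or mucosal secretion were divided. Of 10 above the filter 3 were 2-fold higher and 0 lower, while 6 were below 0 and the median was -0.071. AGR2, a secretory-pathway disulfide isomerase, had 8.46 in siRNA and 9.96 in vector cells, with 3 of 4 probe sets past 2-fold, and FOXA1, a forkhead factor of glandular epithelia, differed by 1.44 (0.93 with the mean over probe sets). Below the filter, CEACAM5, the carcinoembryonic antigen gene, had 3.44 in siRNA and 7.26 in vector cells, SCGB1A1, an airway secretoglobin gene, 2.95 and 5.45, and SPINK1, a trypsin inhibitor gene, 3.60 and 6.08. All 3 siRNA signals lay below the lower quartile of that array, and every probe set of CEACAM5 is marked as open to cross-hybridisation. In the separate list of 7 measured glandular markers 1 passed the filter, CDX2, with 7.05 and 6.97.

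Extracellular matrix genes were the group most often lower in vector cells. The matrix lists held 114 genes above the filter, with 21 lower past 2-fold (against 1.85% of all genes), 1 higher, 25 above 0 and a median of -0.28. Of the 21, 12 were lower under every way of combining probe sets and scaling that gave them a value. The higher one was SERPINB13 (1.03), a serpin of squamous epithelium, which came just under 2-fold after repeated quantile normalization. Fibroblast markers were below the filter on both arrays, as given above.

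The largest lower values were those of metalloproteinases, which cut matrix proteins. MMP10, stromelysin 2, had 10.27 in siRNA and 3.74 in vector cells, a difference of -6.53 on 1 probe set. MMP1, interstitial collagenase, had 8.85 and 3.49 (-5.35), with probe sets at -5.35 and -3.93. MMP13, collagenase 3, had 6.97 and 3.80 (-3.18), or -1.28 with the mean over its 5 probe sets. These 3 genes lie next to each other among the genes above the filter in the RefSeq order. MMP2, gelatinase A, which lies elsewhere, had 8.26 and 6.12 (-2.14). The inhibitor gene TIMP2 differed by -1.63, or -0.90 without probe sets marked as open to cross-hybridisation. Of 13 metalloproteinase and inhibitor genes 5 were 2-fold lower, 0 higher and 11 below 0, with a median of -0.61, which was -0.25 over all 22 measured and -0.31 with the mean over probe sets. The vector signals of MMP10, MMP1 and MMP13 were near the array's lower quartile of 3.58, so the sizes of these differences are uncertain.

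Structural matrix genes followed the same direction. TNC, tenascin C, a glycoprotein of remodelling stroma, had 7.79 in siRNA and 2.95 in vector cells (-4.84), or -2.26 with the mean over its 4 probe sets. With the probe set brightest on the 2 arrays compared TNC was at -1.19. The vector signal of 2.95 was below that array's lower quartile of 3.58, so the size of the TNC difference is uncertain. Among 21 collagen and collagen-processing genes 5 were lower, 0 higher and 18 below 0, with a median of -0.49, or -0.084 over all 40 measured. COL5A1, a regulator of fibril assembly, had 8.04 and 6.15 (-1.89) with 3 of 4 probe sets past 2-fold. The basement membrane collagens COL4A1 (-1.50) and COL4A2 (-1.28), which share a promoter, and COL12A1 (-2.52) and COL6A1 (-2.42) came to -0.84, -0.73, -0.92 and -0.52 with the mean over probe sets, so their 2-fold differences rested on 1 probe set each.

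Of 11 basement membrane genes 3 were lower and 10 were below 0, with a median of -0.68, or -0.34 with the mean over probe sets. NID1, nidogen, which links laminin and collagen networks, had 9.37 and 6.57 (-2.80, or -1.58 with the mean), and FREM2, an adhesion protein of the epidermal basement membrane, 7.64 and 5.12 (-2.52). LAMC3, a laminin chain, differed by -1.10. Among 27 glycoprotein and proteoglycan genes 6 were lower and 0 higher. LTBP1, which tethers latent TGF-beta in the matrix, had 7.64 and 5.69 (-1.95) with 4 of 5 probe sets past 2-fold, and the matrilin gene MATN2 differed by -1.21. The syndecan gene SDC2 (-1.21) had 5 of 6 probe sets past 2-fold and was at -0.99 without those open to cross-hybridisation. FBN2 (-1.59) and FBLN1 (-1.03) came to -0.86 and -0.39 with the mean. Integrin genes, the receptors for these proteins, had 0 of 10 past 2-fold, 8 below 0 and a median of -0.33.

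Genes linked to mesenchymal cells were few among those 2-fold apart. N-cadherin (CDH2) had 7.80 in siRNA and 6.40 in vector cells (-1.40), with probe sets at -1.69 and -1.40. MRC2, an endocytic collagen receptor, was at -2.81 but at -0.83 with the mean over probe sets. Of 15 mesenchymal genes 2 were lower (against 1.85% of all genes), 0 higher and 12 below 0. Earlier work names 26 genes of the lists as HOTAIR targets, of which 23 were measured and 12 passed the filter. CDH2 and MMP2 were the 2 lower members of the 12 (against 1.85% of all genes), with 0 higher and 9 below 0. The median was -0.23, or -0.13 over all 23 measured. Outside the filter the members 2-fold apart were WIF1, given with the Wnt genes, and the protocadherin gene PCDH7 (5.63 in siRNA, 4.03 in vector), both lower in vector cells.

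**Figure D4:**
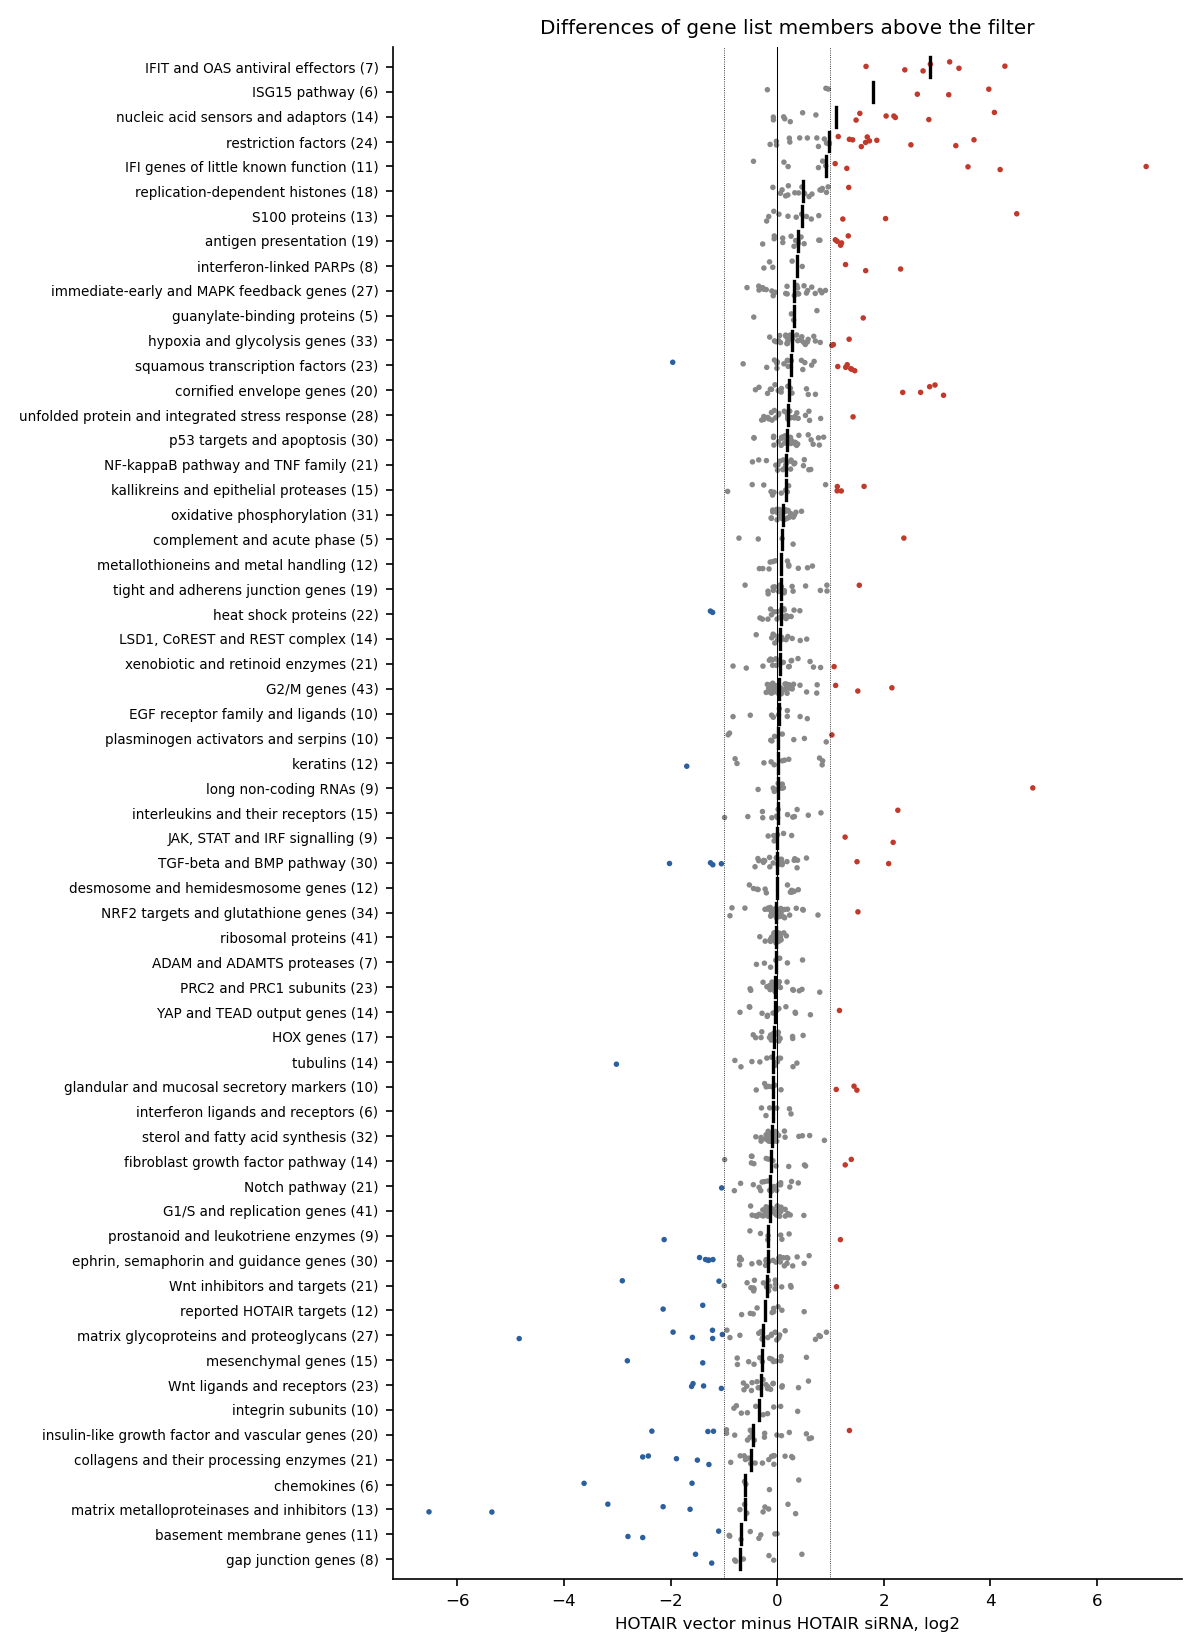
Log2 difference (vector minus siRNA) of every list member above the filter, 1 row per list with its number of genes, ordered by median (black bar), with dotted lines at 2-fold. The 5 top rows are interferon lists, led by the IFIT and OAS genes at a median of 2.88, while the other 5 interferon lists stand further down, and gap junction, basement membrane and metalloproteinase lists fill the bottom rows at medians from -0.70 to -0.61.

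Growth factor and developmental signalling genes differed in both directions. The lists held 219 genes above the filter, and 8 were 2-fold higher (against 1.73% of all genes) and 20 lower (against 1.85%), with 85 above 0 and a median of -0.12. IGFBP5, which binds insulin-like growth factors, had 11.66 in siRNA and 9.31 in vector cells (-2.35), with 5 of 6 probe sets past 2-fold. EDN1, the vasoconstrictor endothelin 1, differed by -1.19 with both probe sets past 2-fold, and the receptor substrate gene IRS1 by -1.30 (-0.78 with the mean). VEGFC, a lymphatic growth factor, was higher by 1.36. In this list of 20 genes the median was -0.45, or -0.22 if probe sets were averaged.

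In the TGF-beta family 2 of 30 genes were higher (against 1.73% of all genes) and 4 lower (against 1.85%). Of the 30, 15 were above 0 and 15 below 0, with a median of -0.0014. GDF15, a stress-induced member, had 5.37 in siRNA and 7.47 in vector cells (2.09), and its 5 probe sets spanned 0.17 to 3.93. INHBE, an activin subunit gene, had 4.96 and 6.47. INHBB, another activin subunit, had 6.49 and 4.47 (-2.02), and FST, the activin antagonist follistatin, 9.63 and 8.38 (-1.25) with 3 of 3 probe sets past 2-fold. The receptor gene TGFBR2 (-1.21) and FSTL1 (-1.05) came to -0.74 and -0.76 with the mean.

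Wnt ligands and receptors included 4 lower (against 1.85% of all genes) and 0 higher genes of 23. The receptor gene FZD1 had 11.61 in siRNA and 10.01 in vector cells (-1.60) and the ligand WNT11 7.64 and 6.06 (-1.58), each with 2 of 2 probe sets past 2-fold. WNT10A, an epidermal ligand, differed by -1.38, and FZD10 by -1.05 (-0.79 with the mean). Among secreted inhibitors, DKK1 was higher by 1.12 and DKK3 lower at -2.90 (-0.99 with the mean). SOX4, a Wnt-responsive factor, differed by -1.09 with 4 of 7 probe sets past 2-fold. WIF1, an inhibitor that binds Wnt ligands, lay outside the filter with 5.71 in siRNA cells and 2.73 in vector cells, below that array's lower quartile, on 1 probe set.

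Guidance genes, which steer growing axons and vessels, had 5 lower (against 1.85% of all genes) and 0 higher of 30. SEMA3C, a secreted semaphorin, went from 11.44 in siRNA to 9.98 in vector cells (-1.46) with 5 of 6 probe sets past 2-fold. NTN4 (-1.34), ROBO1 (-1.29), EFNB3 (-1.28) and SEMA3D (-1.20) came to -0.77, -0.44, -0.70 and -0.66 with the mean. In the fibroblast growth factor list FGF2 was higher by 1.39, with 3 probe sets between 1.32 and 1.51, and the feedback inhibitor gene SPRY2 by 1.28. The Notch ligand gene DLL1 differed by -1.04 (-0.49 with the mean). F3, the coagulation initiator tissue factor, went from 10.35 to 11.52 (1.17), with 3 of 3 probe sets past 2-fold. Immediate-early genes, which serum and stress induce within minutes, had 0 of 27 past 2-fold, and EGF receptor genes 0 of 10, with EGFR itself at -0.83.

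Inflammatory genes gave no common direction. CXCL14, a chemokine made by normal squamous epithelium, had 7.28 in siRNA and 3.65 in vector cells (-3.62, or -1.88 with the mean over its 4 probe sets). Its vector signal was near that array's lower quartile of 3.58, so the size of the difference is uncertain. CXCL1, a neutrophil chemokine, differed by -1.60, or -0.53 without probe sets open to cross-hybridisation. Complement C3 was higher by 2.38 on 1 probe set. IL1RN, the interleukin-1 receptor antagonist, was at 2.27 on 1 probe set and at -0.11 on the other. Genes of the NF-kappaB pathway and the TNF family had 0 of 21 past 2-fold, with 17 above 0 and a median of 0.16. HPGD, which inactivates prostaglandins, went from 8.02 in siRNA to 5.90 in vector cells (-2.12), and its 8 probe sets lay between -2.17 and -1.42, the most probe sets of any gene with all past 2-fold.

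Most cell cycle, metabolic and stress genes were less than 2-fold apart. Of 116 cell cycle genes above the filter 4 were higher and 1 lower. The 163 metabolic genes had 5 and 0, and the 80 stress genes 1 and 2, against 1.73% and 1.85% of all genes. Of 41 genes of G1/S and replication 0 were 2-fold apart, and of 43 G2/M genes 3 were higher. These were the mitotic motor genes CENPE (2.16) and KIF18A (1.52) and the spindle gene ASPM (1.10, with 2 of 2 probe sets past 2-fold). Replication-dependent histone genes had 17 of 18 above 0 and a median of 0.49 (0.31 over all 36 measured), with 1 past 2-fold, H2BC11, which was at 0.69 with the mean. TUBA1A, an alpha-tubulin of developing neurons, had 10.65 in siRNA and 7.64 in vector cells (-3.02), with probe sets at -3.16 and -3.02. Both of these probe sets are marked as open to cross-hybridisation. TUBA1A was the only 1 of 14 tubulin genes past 2-fold.

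Hypoxia and glycolysis genes had 30 of 33 above 0 and a median of 0.28. Past 2-fold 3 were higher (against 1.73% of all genes) and 0 lower. The 3 were the hexokinase gene HK2 (1.35), PFKFB4 (1.06), a regulator of glycolytic flux, and ANKRD37 (1.03), and they came to 0.91, 0.40 and 0.57 with the mean over probe sets. The glutathione transferase gene GSTA1 was at 1.52 on 1 probe set and at -0.02 on the other. NUPR1, a stress-induced chromatin protein, was higher by 1.43, and the heat shock gene HSPA2 was lower at -1.21. Oxidative phosphorylation genes, sterol and fatty acid synthesis genes, p53 targets and ribosomal protein genes had 0 of 31, 0 of 32, 0 of 30 and 0 of 41 members past 2-fold.

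Chromatin genes related to HOTAIR were less than 2-fold apart by the chosen probe sets. PRC2 and PRC1 subunits had 0 of 23 past 2-fold, the LSD1, CoREST and REST complexes 0 of 14 and HOX genes 0 of 17. PCGF5, a PRC1 subunit, was the most different at 0.80, with 2 of 5 probe sets past 2-fold and 1.01 with their mean, and HOXC4 (6.19 in vector, 5.70 in siRNA) and HOXD8 (6.43 and 6.88) were the most different HOX genes. The long non-coding RNA UCA1, described first in bladder carcinoma, went from 5.78 in siRNA to 10.58 in vector cells (4.80) on 1 probe set. None of the 8 other long non-coding RNAs of the list that were measured was 2-fold apart.

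Further genes with large differences belonged to no list, apart from PLAAT3 of the prostanoid and leukotriene list. Higher were CEL, a bile salt-stimulated lipase (7.96 in vector, 5.40 in siRNA, 2.56), ANXA3, an annexin (7.37 and 5.05, 2.32), and IRAG2, a membrane protein of the endoplasmic reticulum (2.86), each with all probe sets past 2-fold. Both probe sets of CEL are marked as open to cross-hybridisation. The phospholipase and acyltransferase genes PLAAT4 (2.21), PLAAT2 (2.08) and PLAAT3 (1.19, or 0.90 with the mean) are neighbours and were higher together. IKZF2, a zinc-finger gene, was at 2.31 on 1 probe set and at 0.18 and -0.31 on the others. NT5E, the ectonucleotidase CD73, lay outside the filter with 3.01 in siRNA and 6.98 in vector cells.

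Lower genes outside the lists had diverse roles. DACH1, a retinal determination factor, had 7.61 in siRNA and 4.45 in vector cells (-3.16), with both probe sets past 2-fold. FLRT3, a fibronectin and leucine-rich transmembrane protein, went from 9.84 to 7.27 (-2.57) and TENM2, a teneurin adhesion protein, from 11.04 to 8.99 (-2.05), each with 3 of 3 probe sets past 2-fold. BCHE, butyrylcholinesterase, had 9.94 and 7.56, with probe sets at -2.40 and -2.38. RAB31, a vesicle transport GTPase (-1.50), and CRISPLD1 (-1.34), a secreted protein, had 4 of 4 and 5 of 5 probe sets past 2-fold. DAPL1 had 10.41 and 7.96 (-2.46), and AKAP12, a kinase scaffold, 7.24 and 4.68 (-2.56).

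In this group too some values rested on a minority of probe sets. SDK2 (-3.17), an adhesion molecule of the retina, came to -1.69 with the mean over probe sets. DMRT1 (-2.64), a sex-determination factor, was at 0.02 and 0.43 on its other probe sets. PCDH18 (-2.64), SOBP (-2.13) and ELMOD1 (-2.12) had 2 of 5, 2 of 4 and 1 of 3 probe sets past 2-fold. SULT1E1, the oestrogen sulfotransferase, lay outside the filter with 6.63 in siRNA and 3.52 in vector cells, and its 4 probe sets ran from -4.04 to -2.74. CDH11, a mesenchymal cadherin, had 6.10 and 3.19 but only 1 of 6 probe sets past 2-fold.

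**Figure D5:**
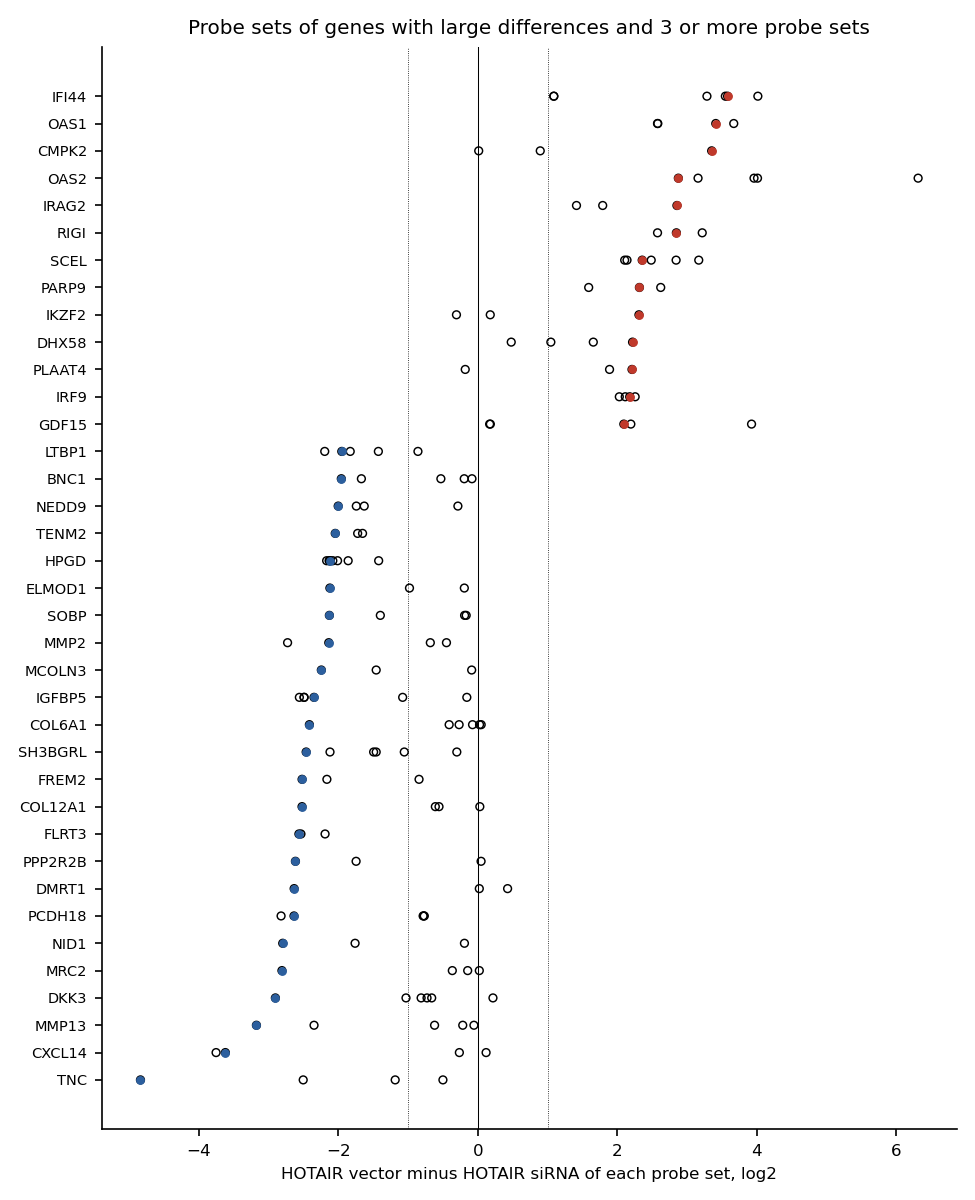
Log2 difference (vector minus siRNA) of every probe set (open circles) of genes that were among the 40 highest or 40 lowest and had 3 or more probe sets, with the chosen probe set filled (red higher, blue lower) and dotted lines at 2-fold. IRF9, SCEL and HPGD have their circles close together, whereas CMPK2, COL6A1 and DKK3 have circles near 0.

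Some genes 2-fold apart in the same direction were neighbours. Among the 10915 genes above the filter placed in the RefSeq gene order, 68 stood in 30 runs of adjacent genes sharing a direction. Of the 189 higher genes (1.73% of all) 47 stood in 20 runs, and of the 202 lower genes (1.85%) 21 in 10 runs. The number of runs that these shares alone would give was not worked out. The runs of 4 were IFIT2, IFIT3, IFIT1 and IFIT5, and SPRR3, SPRR1B, S100A9 and S100A8, the latter in the epidermal differentiation complex. The runs of 3 were MMP10, MMP1 and MMP13, PLAAT4, PLAAT2 and PLAAT3, SAMD9, SAMD9L and VPS50, and ASPM, ZBTB41 and DENND1B. ZBTB41 differed by 2.44 on both of its probe sets and DENND1B by 1.08, whereas VPS50 (1.14) was at 0.60 with the mean. Many of these runs are families of duplicated genes, whose copies can share probes.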

How the data were processed

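RNA of 3 KYSE180 samples, 1 per group by the labels, was hybridised to 3 oligonucleotide arrays. The authors deposited 1 value per probe set and array, by RMA according to the submitters' processing notes. The deposited file states no scale, and log2 was read from the range of values. The version and settings of RMA were not given in the sources used here. Of 49293 probe sets the platform annotation gave 1 symbol for 44988, several for 1832 and did not list 2473. Median signals were 5.23 on the vector and 5.25 on the siRNA array.

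The log2 difference was taken per gene and counted past 2-fold, with no test. Genes were named by a rule: the 40 largest differences in each direction, list members past 2-fold (at most 12 per list, else the 2 most different), up to 15 per direction dim in 1 arm, neighbour runs of 3 or more and genes whose 4 or more probe sets all passed 2-fold. The 68 lists and the genes described were chosen with earlier results of these data known. Alternatives varied the fold, the filter, the choice of probe set and the scaling. The steps were tested on simulated data in which all probe sets of a gene were given the same change. Disagreement between probe sets was therefore not covered. Software was matplotlib 3.10.9, statsmodels 0.14.6, scipy 1.17.1, pandas 2.3.3 and numpy 2.4.6 under Python 3.11.15.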

Additional observations from a re-analysis of the deposited data

How the results depend on the processing

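At a 1.5-fold threshold 517 genes were higher and 540 lower in vector cells, at 3-fold 69 and 65, and at 4-fold 42 and 38. A filter at the 75th percentile of signal left 80 higher and 74 lower genes. With the mean over probe sets 145 genes were higher and 122 lower, and with the median 159 and 124, mean and median being taken over the levels on each array before the subtraction. Of the 202 lower genes, 116 remained with the mean and 118 with the median. Without a filter 248 and 264 genes passed, and under repeated quantile normalization 178 and 218. The sign turned for DMRT1 (0.43) and IKZF2 (-0.31) with the difference of median levels, although their median probe set differences were 0.02 and 0.18, and for GSTA1 (-0.023) and IL1RN (-0.11) without probe sets open to cross-hybridisation. No cause was tested. Dim signals, those near the lower quartile of an array, limit the sizes of differences. No paired analysis was possible because each group had 1 array.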

Other observations

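Families noticed after their values were seen are given here as values. Zinc-finger genes with ZNF symbols numbered 266 above the filter, with 9 past 2-fold on the higher side and 0 on the lower. Of all genes 1.73% were higher and 1.85% lower. The ZNF genes had 122 above 0 and a median of -0.020. Among the 9, ZNF644 differed by 1.29 with 6 of 7 probe sets past 2-fold and ZNF292 by 1.83 with 4 of 5. Mitochondrial ribosomal protein genes lay mostly above 0 without reaching 2-fold, with 36 of 48 MRPL genes (median 0.17) and 24 of 27 MRPS genes (median 0.18). Genes of the GALNT family, which start mucin-type glycosylation, had 4 of 13 above 0 and a median of -0.42. Keratin-associated protein genes, which are expressed in hair, had 2 of 24 above 0 and a median of -0.15.

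Some genes of long coiled-coil proteins of the Golgi, centrosome and endosome were also singled out after their values were seen. The Golgi tethers TRIP11, GOLGA4 and GCC2 differed by 1.89, 1.30 and 1.13, the centrosomal genes CEP290 and AKAP9 by 1.51 and 1.20, and the endosomal tether EEA1 by 1.63, all higher in vector cells. The probe sets disagreed for CEP290, AKAP9 and EEA1, of which 2 of 4, 2 of 4 and 1 of 3 were past 2-fold. No list of such genes was drawn up, and of 30 genes with CEP symbols 1 was past 2-fold, 15 were above 0 and the median was 0.013.

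Of 4305 probe sets without a single gene symbol, 1913 were at or above the filter level, and 20 of these were at least 2-fold higher and 19 lower. Of all genes above the filter 1.73% were higher and 1.85% lower, counted per gene and not per probe set.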
